A study of Mus musculus with 20 samples.

Results

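The genes described here are 8 regulators of fibrinolysis and coagulation: *Serpine2*, *Plat*, *Plau*, *Plaur*, *F3*, *Thbd*, *Tfpi* and *Tfpi2*. They were taken by name, with earlier results of these data known. The 8 were found by Ensembl identifier among the 43422 genes that have a value in each library. The libraries were made from the abdominal aortas of 20 mice, labelled as C57BL/6 and as 6 months old, with 5 mice in each of 4 groups. WT and *Plod1*-/- mice, which lack lysyl hydroxylase 1 (LH1), an enzyme that modifies collagen lysines before crosslinking, received saline or angiotensin II (Ang II) at 1000 ng/kg per minute from a subcutaneous osmotic pump, and RNA was taken on day 14. The knock out is not tied to a cell type, the methods describe male mice of the C57Bl/6NCrl background and another age, and nothing in the labels marks pooled animals or a batch. The study asked what the loss of LH1 changes in the aorta during Ang II infusion. Values are FPKM (fragments scaled to transcript length and library size), in which genes and mice can be set side by side. A large class of RNA in a library can lower its other values, so levels between mice are relative.

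A clot is built by coagulation and removed by fibrinolysis. Tissue factor, the product of *F3*, binds factor VII and starts coagulation, which ends with thrombin turning fibrinogen into fibrin. Tissue factor pathway inhibitor, from *Tfpi*, blocks activated factor X and the tissue factor complex, and thrombomodulin, from *Thbd*, turns thrombin towards activation of protein C. Plasmin, which dissolves fibrin and also attacks matrix proteins, is released from plasminogen by the tissue-type activator (*Plat*) and by urokinase (*Plau*), which works on the cell surface when held by its receptor (*Plaur*). Protease nexin-1, from *Serpine2*, inhibits thrombin, both activators and plasmin, and *Tfpi2* encodes a Kunitz-type inhibitor of plasmin in the matrix. In the artery wall these proteins come from endothelium, smooth muscle, fibroblasts and infiltrating leukocytes.

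With Ang II and without LH1, aortic *Plau*, *Plaur* and *Tfpi2* rose, both against saline-treated *Plod1*-/- mice and against Ang II-treated WT mice. *Serpine2* fell against saline-treated *Plod1*-/- mice, and its lower level than in Ang II-treated WT mice was near the threshold, with the call lost in 8 of 10 fits that left out 1 mouse and in 3 of 11 alternatives. *Tfpi2* passed the filter on low values through the Ang II-treated *Plod1*-/- mice alone. The direction of its difference was thus fixed by the filter, and its call is no separate support. Mean *Plaur* was 5.90 times and mean *Plau* 4.95 times the saline level of the same genotype, and mean *Serpine2* was 3.51 times lower. None of the 7 genes tested passed the threshold between Ang II-treated and saline-treated WT mice, or between the genotypes under saline. *Plat*, *F3*, *Thbd* and *Tfpi* passed it in no comparison. A gene was called where limma on log2(FPKM + 1), fitted across the whole table, gave an adjusted p (Benjamini-Hochberg) below 0.05 together with a change of more than 1 on the log2 scale in either direction. At a low FPKM this scale makes a change look smaller than it is.

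**Figure D1:**
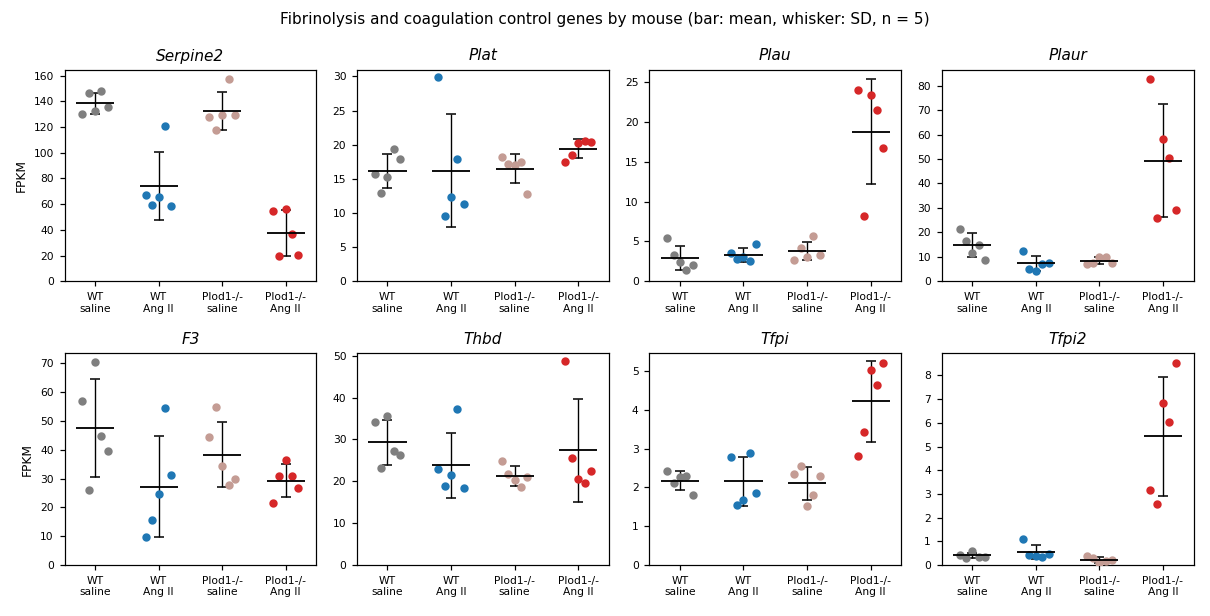
FPKM of the 8 genes in each mouse (linear axis from 0, a scale of its own in each panel), by genotype and infusion; points are mice, bars are means and whiskers are SD (n = 5). *Plau*, *Plaur* and *Tfpi2* are highest in the 5 Ang II-treated *Plod1*-/- mice, and *Serpine2* is lower in these mice (19.8 to 56.4) than in any other mouse (58.3 or more).

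The genotype labels held, since *Plod1* had 22.8 to 29.7 FPKM in WT and no more than 0.0415 in *Plod1*-/- libraries. No read counts entered these values, and absolute depth is unknown. Relative depth, estimated from the spacing of low values, was 0.914 to 1.07. *Xist*, an RNA of the inactive X chromosome, had 15.1 FPKM in saline-treated *Plod1*-/- replicate 5 and 7.93 in Ang II-treated *Plod1*-/- replicate 1 but no more than 0.0328 in the other 18, which goes against a set of male mice only. The calls of *Plau*, *Plaur*, *Tfpi2* and *Serpine2* in Ang II-treated *Plod1*-/- mice were kept without these 2 libraries. Mitochondrial genes took 14.6% to 29.1% of the FPKM sum in Ang II-treated WT mice and 8.37% to 21.1% in the other 3 groups, and the same calls were kept with these genes left out. The smooth muscle genes *Acta2* and *Myh11*, at medians of 13026 and 1199 FPKM in saline-treated WT mice, and the endothelial gene *Pecam1*, at a median of 100.5, were present as the tissue label asks.

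The 8 genes lie apart on 7 chromosomes, and no annotated gene overlaps any of them. In GRCm38 with GENCODE release M21, *Serpine2* (ENSMUSG00000026249) runs from 79794197 to 79861180 on the minus strand of chromosome 1. *Tfpi* (ENSMUSG00000027082) runs from 84432855 to 84476775 and *Thbd* (ENSMUSG00000074743) from 148404466 to 148408188 on the minus strand of chromosome 2, and *F3* (ENSMUSG00000028128) from 121723537 to 121735048 on the plus strand of chromosome 3. *Tfpi2* (ENSMUSG00000029664) runs from 3962595 to 3988919 on the minus strand of chromosome 6. On the plus strand, *Plaur* (ENSMUSG00000046223) runs from 24462484 to 24475968 on chromosome 7, *Plat* (ENSMUSG00000031538) from 22757727 to 22782844 on chromosome 8 and *Plau* (ENSMUSG00000021822) from 20836660 to 20843385 on chromosome 14. The libraries were not strand-specific, so the absence of overlapping genes keeps reads of an antisense partner out of these values.

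Promoter sequences from RefSeq (GRCm38.p6, 250 bases before to 50 after a start site) were found for 5 of the 8 genes, *Serpine2*, *Plaur*, *F3*, *Tfpi* and *Tfpi2*. Those of *Plaur* and *Tfpi2*, which rose together, of *F3*, which did not pass the threshold, and of *Serpine2*, which fell, are shown 5′ to 3′ to set their motif content beside the expression values. Capitals mark matches on either strand to TGANTCA, the letters bound by AP-1 (the dimer of Fos and Jun proteins), and to GGGCGG, the GC box bound by Sp1. No match to one motif overlaps a match to the other.
*Plaur*, chr7:24462233-24462532, plus strand: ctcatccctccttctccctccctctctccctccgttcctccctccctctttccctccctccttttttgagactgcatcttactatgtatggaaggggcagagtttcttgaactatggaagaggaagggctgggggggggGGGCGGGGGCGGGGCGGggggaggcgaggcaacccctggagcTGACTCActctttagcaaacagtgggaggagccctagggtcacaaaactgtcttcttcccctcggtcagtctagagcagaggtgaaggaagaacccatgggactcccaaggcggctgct
*Tfpi2*, chr6:3968326-3968625, minus strand: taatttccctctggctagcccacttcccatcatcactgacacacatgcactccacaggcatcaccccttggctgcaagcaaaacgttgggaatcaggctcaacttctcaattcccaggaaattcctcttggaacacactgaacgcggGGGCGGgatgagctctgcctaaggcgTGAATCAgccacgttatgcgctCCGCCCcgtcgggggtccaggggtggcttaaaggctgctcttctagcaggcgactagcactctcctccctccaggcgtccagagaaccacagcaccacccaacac
*F3*, chr3:121723287-121723586, plus strand: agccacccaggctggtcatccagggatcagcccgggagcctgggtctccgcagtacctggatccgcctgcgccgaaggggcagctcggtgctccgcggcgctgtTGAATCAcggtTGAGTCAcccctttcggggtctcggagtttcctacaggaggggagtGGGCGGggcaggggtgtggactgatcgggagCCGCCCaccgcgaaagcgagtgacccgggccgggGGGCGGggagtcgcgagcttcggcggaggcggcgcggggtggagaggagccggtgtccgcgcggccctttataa
*Serpine2*, chr1:79858616-79858915, minus strand: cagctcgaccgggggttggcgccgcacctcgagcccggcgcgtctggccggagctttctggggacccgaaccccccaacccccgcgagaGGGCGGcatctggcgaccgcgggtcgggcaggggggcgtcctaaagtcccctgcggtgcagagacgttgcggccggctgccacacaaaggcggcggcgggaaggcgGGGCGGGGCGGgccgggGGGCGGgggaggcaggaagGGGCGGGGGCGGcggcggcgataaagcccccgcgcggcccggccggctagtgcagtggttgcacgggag
The AP-1 letters stand at bases 182 to 188 of the *Plaur* window, at bases 174 to 180 of the *Tfpi2* window and in *F3* at bases 105 to 111 and 116 to 122. They are in neither the *Serpine2* window nor the *Tfpi* windows of 2 start sites. *Tfpi2* has 3 start sites in the table, and the other 2 windows, upstream of it, hold neither motif. AP-1 letters are in 7.81% and the GC box in 35.7% of the 32851 mouse promoters searched. *Serpine2* holds 6 GC boxes, *Plaur* and *F3* hold 3 each and this *Tfpi2* window holds 2. The motif thus stood in promoters of genes that rose and of a gene that did not pass the threshold.

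In saline-treated WT aorta, *Serpine2* had by far the highest level of the 8 genes per transcript length, at 138 ± 8.24 FPKM (SD, n = 5). *F3* followed at 47.6 ± 16.9 and *Thbd* at 29.3 ± 5.33, and the mice overlapped between these genes (26.1 to 70.4 and 23.2 to 35.6). *Plat* (16.2 ± 2.49) and *Plaur* (14.7 ± 4.89) lay below them and also overlapped. *Plau* (2.91 ± 1.54) and *Tfpi* (2.18 ± 0.236) could not be ordered, and *Tfpi2* was lowest, at 0.404 ± 0.122. In Ang II-treated *Plod1*-/- aorta the order was different. *Plaur* came first by mean, at 49.3 ± 23.1 FPKM (SD, n = 5), and was above *Serpine2* (37.7 ± 17.7) in 5 of 5 mice. In replicate 2 *F3* (31.0) was above *Plaur* (26.0). In the other 15 mice *Serpine2* was the highest of the 8. The urokinase gene *Plau* was above *Plat* in 3 of 5 mice, and *Tfpi2* was above *Tfpi* in 4 of 5.

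The plasminogen activators differed from each other. *Plau*, the urokinase gene, had 5.40, 3.28, 2.38, 1.44 and 2.06 FPKM in WT mice under saline and 3.52, 2.83, 3.10, 2.50 and 4.68 FPKM under Ang II. The *Plod1*-/- mice had 2.71, 4.21, 3.09, 5.69 and 3.30 FPKM under saline and 24.1, 8.22, 23.4, 21.6 and 16.8 under Ang II. The lowest Ang II-treated *Plod1*-/- mouse, replicate 2, was still above the highest of the other 15 mice. On the log2 scale *Plau* rose with Ang II in *Plod1*-/- mice by 1.99 (SE 0.28, limma adjusted p = 3.35e-04), and it was higher than in Ang II-treated WT mice by 2.13 (SE 0.27, limma adjusted p = 0.00109). In WT mice its change with Ang II was 0.21 on the same scale (SE 0.23, limma adjusted p = 0.491), and the difference between the responses of the genotypes was 1.79 (SE 0.38, limma adjusted p = 0.00177).

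*Plat*, the tissue-type activator gene, had similar levels in the 4 groups, with means from 16.2 to 19.4 FPKM. Its 5 values in Ang II-treated *Plod1*-/- mice were 17.4, 18.4, 20.2, 20.5 and 20.4 FPKM, the tightest of the 4 groups, and those in Ang II-treated WT mice ran from 9.53 to 29.9. The highest of these was WT replicate 1. The log2 fold changes of *Plat* lay between -0.10 and 0.36 in the 4 comparisons, with adjusted p from 0.108 to 0.905 (limma).

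Because these enzymes act on the same substrate, their ratio was taken within each mouse as the log2 of (*Plau* + 1)/(*Plat* + 1). The WT mice had ratios of -2.21 ± 0.68 (SD, n = 5) under saline and -1.90 ± 0.69 under Ang II, and the *Plod1*-/- mice -1.89 ± 0.36 and -0.13 ± 0.59. The 5 Ang II-treated *Plod1*-/- mice, at -1.07 to 0.44, lay above the other 3 groups, the nearest of which reached -1.12. The ratio was higher by 1.76 than in saline-treated *Plod1*-/- mice and by 1.77 than in Ang II-treated WT mice (exact permutation test, p = 0.00794 for both, the smallest that 5 against 5 mice can give, and 0.0212 after adjustment over 8 tests). Without the 2 libraries with *Xist* RNA, the adjusted p was 0.0762 for both, with differences of 1.68 and 1.63.

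*Plaur*, the urokinase receptor gene, had the largest change of the 8 genes between the genotypes under Ang II on the log2(FPKM + 1) scale. By the ratio of mean FPKM *Tfpi2* came first, at 9.89 times against 6.79 times for *Plaur*, and with a pseudocount of 0.1 it did so too, at 3.06 against 2.71 on the log2 scale. WT mice had 21.5, 16.5, 11.6, 15.0 and 8.67 FPKM under saline and 12.4, 5.14, 4.36, 7.11 and 7.27 under Ang II. For *Plod1*-/- mice the FPKM was 6.93, 7.38, 9.90, 10.01 and 7.52 under saline and 82.6, 26.0, 58.1, 50.4 and 29.3 under Ang II. The Ang II-treated *Plod1*-/- mice were above the other 15, the highest of which was a saline-treated WT mouse. On the log2 scale *Plaur* rose with Ang II in *Plod1*-/- mice by 2.32 (SE 0.29, limma adjusted p = 1.82e-04), and it exceeded the Ang II-treated WT level by 2.56 (SE 0.34, limma adjusted p = 0.00134). In WT mice its log2 fold change with Ang II was -0.94 (SE 0.27, limma adjusted p = 0.0209), short of the fold threshold, and the WT groups overlapped in 1 Ang II-treated mouse, replicate 1. With a pseudocount of 0.1 it was -1.03 and passed, as it did without saline-treated WT replicate 3 (-1.003) or 5 (-1.10) or Ang II-treated WT replicate 1 (-1.13). The responses of the genotypes thus had opposite signs, and their difference was 3.26 (SE 0.41, limma adjusted p = 3.68e-05). Under saline, the log2 fold change of *Plaur* between *Plod1*-/- and WT mice was -0.70 (SE 0.20, limma adjusted p = 0.0629).

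**Figure D2:**
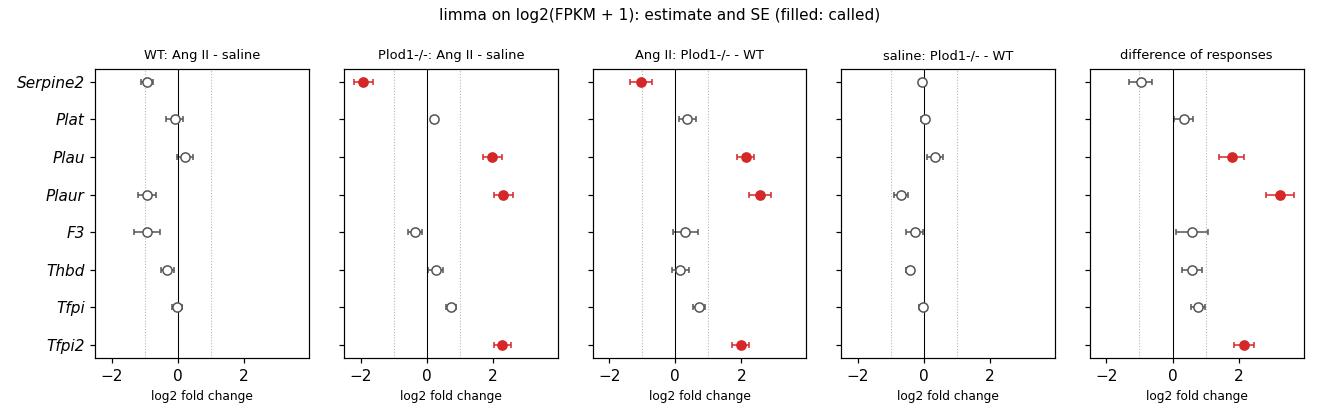
Log2 fold changes of the 8 genes on the log2(FPKM + 1) scale with their SE in 5 comparisons; filled red points were called, open points were not, and dotted lines mark a log2 fold change of 1 in size. *Tfpi2* has no point where it was below the filter on low values. *Plau*, *Plaur* and *Tfpi2* lie right of the line at 1 in the same 3 panels (1.79 to 3.26), and the WT response and the saline comparison hold no filled point.

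Among the inhibitors, *Serpine2* and *Tfpi2* moved in opposite directions in Ang II-treated *Plod1*-/- mice. *Serpine2*, the protease nexin-1 gene, had 130, 146, 132, 148 and 136 FPKM in WT mice under saline and 67.1, 59.0, 65.8, 121 and 58.3 FPKM under Ang II. *Plod1*-/- mice had 128, 118, 129, 158 and 129 FPKM under saline and 54.8, 19.8, 56.4, 36.8 and 20.5 under Ang II. Ang II-treated and saline-treated mice did not overlap in either genotype, and WT replicate 4, at 121 FPKM, stood apart from the other Ang II-treated WT mice. *Serpine2* fell with Ang II in *Plod1*-/- mice, by a log2 change of -1.91 (SE 0.29, limma adjusted p = 5.69e-04). In WT mice *Serpine2* had a log2 change of -0.95 (SE 0.18, limma adjusted p = 0.00443), short of the fold threshold, and without that WT replicate 4 it was -1.13 and passed. Between the genotypes under Ang II its log2 change was -1.04 (SE 0.33, limma adjusted p = 0.0358). This call was near the threshold: it was kept in 2 of 10 fits that left out 1 mouse, those without Ang II-treated *Plod1*-/- replicate 1 or replicate 3, and the adjusted p in the 10 fits ran from 0.0175 to 0.0802. The difference between the responses was -0.97 (SE 0.36, limma adjusted p = 0.0409), which missed the fold threshold but passed it in 5 of 20 fits without 1 mouse, the lowest being -1.14 without Ang II-treated *Plod1*-/- replicate 3. It also passed with quantile normalization (-1.11), mitochondrial genes left out (-1.08) and the libraries with *Xist* RNA left out (-1.14).

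*Tfpi2*, the Kunitz-type inhibitor gene, was at or near the low end of the scale in 3 groups. WT mice had 0.415, 0.317, 0.612, 0.341 and 0.337 FPKM under saline and 1.10, 0.426, 0.374, 0.359 and 0.486 FPKM under Ang II. Saline-treated *Plod1*-/- mice had 0.402, 0.289, 0.0872, 0.161 and 0.204 FPKM. Under Ang II they had 3.17, 2.59, 6.84, 6.02 and 8.51 FPKM, where the lowest value was above the highest of the other 15. *Tfpi2* passed the filter on low values (an FPKM of 1 or more in 5 mice or more) only through the Ang II-treated *Plod1*-/- group, so a gene that passed in this way had to differ. Its log2 fold change was 2.30 against saline-treated *Plod1*-/- mice (SE 0.25, limma adjusted p = 9.82e-05) and 1.98 against Ang II-treated WT mice (SE 0.27, limma adjusted p = 0.00140), and the difference between the responses was 2.17 (SE 0.30, limma adjusted p = 6.30e-05). With a pseudocount of 0.1 the same 3 values were 4.02, 3.06 and 3.73. In the comparisons where it was below the filter, exact permutation tests on the log2 scale gave a difference of 0.12 with Ang II in WT mice (p = 0.437) and of -0.19 between the genotypes under saline (p = 0.0556). Without saline-treated *Plod1*-/- replicate 1 the latter was -0.24 (exact permutation p = 0.0159).

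*Tfpi*, the main inhibitor of the tissue factor complex, had 2.41, 2.11, 2.27, 2.29 and 1.80 FPKM in WT mice under saline and 2.78, 1.55, 1.68, 2.90 and 1.87 FPKM under Ang II. *Plod1*-/- mice had 2.35, 2.56, 1.51, 1.81 and 2.29 FPKM under saline and 2.82, 3.43, 5.03, 4.63 and 5.19 under Ang II. Its mean in Ang II-treated *Plod1*-/- mice was 2.004 times that in saline-treated *Plod1*-/- mice, without overlap, but the lowest mouse, replicate 1, overlapped the Ang II-treated WT range. On the log2(FPKM + 1) scale the changes were 0.74 against saline (SE 0.16, limma adjusted p = 0.00371) and 0.73 against Ang II-treated WT mice (SE 0.18, limma adjusted p = 0.0142), below the fold threshold. With a pseudocount of 0.1 they were 0.96 and 0.95, still below it. The difference between the responses was 0.77 (SE 0.21, limma adjusted p = 0.00941), and 1.01 with a pseudocount of 0.1, which passed.

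*F3* and *Thbd*, the genes of the initiator of coagulation and of the thrombin cofactor, were not called in any comparison. *F3* ran from 26.1 to 70.4 FPKM in saline-treated WT mice, from 9.68 to 54.6 in Ang II-treated WT mice, from 27.6 to 54.7 in saline-treated *Plod1*-/- mice and from 21.5 to 36.6 in Ang II-treated *Plod1*-/- mice. The 4 groups overlapped. In WT mice the log2 fold change of *F3* with Ang II was -0.93 (SE 0.40, limma adjusted p = 0.0827), and without Ang II-treated WT replicate 4, the mouse with 54.6 FPKM, it was -1.23 (limma adjusted p = 0.0124). With Ang II and no LH1 it was -0.35 (SE 0.20, limma adjusted p = 0.185).

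*Thbd* had group means from 21.3 to 29.3 FPKM. Its log2 fold change was -0.43 between the genotypes under saline (SE 0.12, limma adjusted p = 0.0612). Ang II-treated *Plod1*-/- replicate 1, at 48.9 FPKM, was far above the other 4 mice of its group, at 19.6 to 25.5. Without that mouse the log2 fold change between the genotypes under Ang II was -0.07 in place of 0.16.

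The balance of initiator and inhibitor was described by the log2 of (*F3* + 1)/(*Tfpi* + 1) in each mouse. The WT means were 3.86 ± 0.49 (SD, n = 5) under saline and 2.96 ± 0.91 under Ang II, and those of *Plod1*-/- mice 3.63 ± 0.32 and 2.54 ± 0.25. Among *Plod1*-/- mice the ratio fell by 1.08 with Ang II, from 3.24 to 3.97 under saline to 2.16 to 2.85, without overlap (exact permutation p = 0.00794, the smallest possible, adjusted p = 0.0212). In WT mice the difference was -0.90 (exact permutation p = 0.0794, adjusted p = 0.159), and between the genotypes under Ang II it was -0.42 (exact permutation p = 0.357, adjusted p = 0.481). Without the libraries with *Xist* RNA the change in *Plod1*-/- mice was -1.19 with an adjusted p of 0.0762.

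**Figure D3:**
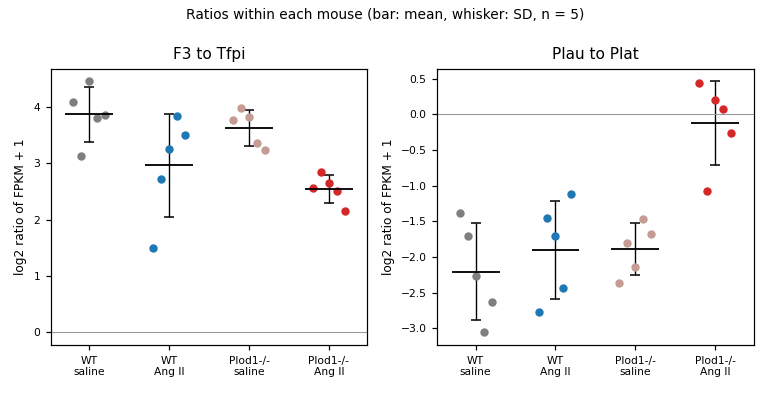
Log2 ratios of *F3* to *Tfpi* and of *Plau* to *Plat* (FPKM + 1) in each mouse; points are mice, bars are means and whiskers are SD (n = 5). The 5 Ang II-treated *Plod1*-/- mice have *F3* to *Tfpi* ratios of 2.16 to 2.85, below the saline-treated *Plod1*-/- mice, and the highest *Plau* to *Plat* ratios (-1.07 to 0.44).

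The counts of calls were set against the whole table, although the 8 genes were chosen with earlier results of these data known. With Ang II in *Plod1*-/- mice, 3 of the 8 genes were higher and 1 was lower, where 8.38% of the 12333 genes tested were called higher and 5.51% lower. One of the 3 is *Tfpi2*, which passed the filter on low values only through the Ang II-treated *Plod1*-/- mice. It had to be higher there in this comparison, between the genotypes under Ang II and in the difference between the responses. That leaves 2 higher genes (*Plau* and *Plaur*) to set against these shares. Between the genotypes under Ang II the counts were again 3 and 1, where 7.45% of 12356 genes (920) were called higher and 3.67% (453) lower. Quantile normalization, which took the log2 median over all genes tested from 0.12 to -0.03 here, gave 744 higher and 612 lower and the same 4 calls among the 8 genes. These 2 comparisons share the Ang II-treated *Plod1*-/- mice. In WT mice 0 of the 7 genes tested were called with limma, where 8.66% of 11994 genes were called. By the adjusted p alone, 2 of the 7 passed, and so did 38.0% of the genes tested. Under saline 0 of 7 were called with limma, where 0.767% of 11999 genes were. The difference between the responses was called higher for *Plau*, *Plaur* and *Tfpi2*, where 9.69% of 13263 genes were. For the whole table the split was 1285 higher to 844 lower, and 1020 to 1095 with quantile normalization, with the calls of these 3 genes kept.

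The other genes of the plasminogen system held further increases. Of 12 listed genes, 5 passed the filter, and 3 of these were called higher and 0 lower (limma) in Ang II-treated *Plod1*-/- mice against saline (*Anxa2*, *S100a10* and *Vtn*). Against Ang II-treated WT mice 2 were called higher (*Anxa2* and *S100a10*). The median log2 fold changes of the 5 genes were 1.08 and 0.21, where those of all genes tested were 0.05 and 0.12. *Anxa2* and *S100a10* encode the subunits of a plasminogen receptor. *S100a10* went from 64.7 ± 8.44 FPKM (SD, n = 5) under saline to 190 ± 32.5 under Ang II in *Plod1*-/- mice, by 1.53 on the log2 scale (SE 0.15, limma adjusted p = 5.98e-05), and the rise of *Anxa2* there was 1.08 (SE 0.21, limma adjusted p = 0.00189). Against Ang II-treated WT mice, they had log2 fold changes of 1.21 and 1.31 (limma adjusted p = 0.00209 and 0.00310). Saline-treated WT mice had 72.6 to 160 FPKM of *S100a10* and 90.7 to 170 of *Anxa2*. Both ranges overlapped those of Ang II-treated *Plod1*-/- mice (134 to 217 and 144 to 324 FPKM). *Vtn*, whose product vitronectin binds the urokinase receptor, rose with Ang II in both genotypes, by 1.79 in WT and 1.12 in *Plod1*-/- mice (limma adjusted p = 0.00472 and 0.00155). Its saline medians were 0.328 FPKM in WT and 0.657 in *Plod1*-/- mice, and its lowest Ang II values were 1.56 and 1.76. *Vtn* thus passed the filter on low values through the Ang II-treated mice, and its calls against saline are no separate support. *Plg*, the plasminogen gene, did not exceed 0.0759 FPKM in any mouse. *Serpinb2*, another gene of this list below the filter, had 0.0149 to 0.0911 FPKM in saline-treated and 0.443 to 3.12 in Ang II-treated *Plod1*-/- mice.

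Of 14 other coagulation factor genes, 4 passed the filter in each of the same 2 comparisons and 3 of these were called higher in both. *F7*, whose product is the partner of tissue factor, had 0.0384 to 0.127 FPKM in saline-treated and 1.08 to 12.9 in Ang II-treated *Plod1*-/- mice. *F10* had 0.0392 to 0.293 and 1.10 to 7.22 FPKM in the same groups. Like *Tfpi2*, both passed the filter through the Ang II-treated *Plod1*-/- group and had to differ. *F13a1*, the fibrin-crosslinking factor XIII subunit made by macrophages and megakaryocytes, rose from 8.77 ± 4.53 to 62.2 ± 30.0 FPKM (SD, n = 5), which was 2.60 on the log2 scale (SE 0.54, limma adjusted p = 0.00318), and exceeded the Ang II-treated WT level by 1.84 (SE 0.55, limma adjusted p = 0.0281). For *Vwf*, an endothelial and platelet gene, the log2 fold change with Ang II in *Plod1*-/- mice was 0.06 (SE 0.47, limma adjusted p = 0.931). The liver genes *F2*, *F9*, *F11* and *F12* and the fibrinogen genes *Fga*, *Fgb* and *Fgg* had means of no more than 0.170 FPKM in each group.

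Of 9 other anticoagulant genes, 3 passed the filter. *Procr*, the endothelial protein C receptor gene, rose with Ang II in *Plod1*-/- mice from 6.86 ± 2.77 to 17.4 ± 2.62 FPKM (SD, n = 5; log2 fold change 1.30, SE 0.24, limma adjusted p = 0.00155), and its log2 fold change against Ang II-treated WT mice was 0.51 (SE 0.16, limma adjusted p = 0.0301). Saline-treated WT mice had 10.2 ± 2.56 FPKM of *Procr*. *Pros1* and *Anxa5* were not called in any comparison. Of the 4 protease-activated receptor genes 2 passed the filter. *F2rl1* had a difference between the responses of 1.16 (SE 0.33, limma adjusted p = 0.0117), and *F2r*, the thrombin receptor gene, was not called.

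**Figure D4:**
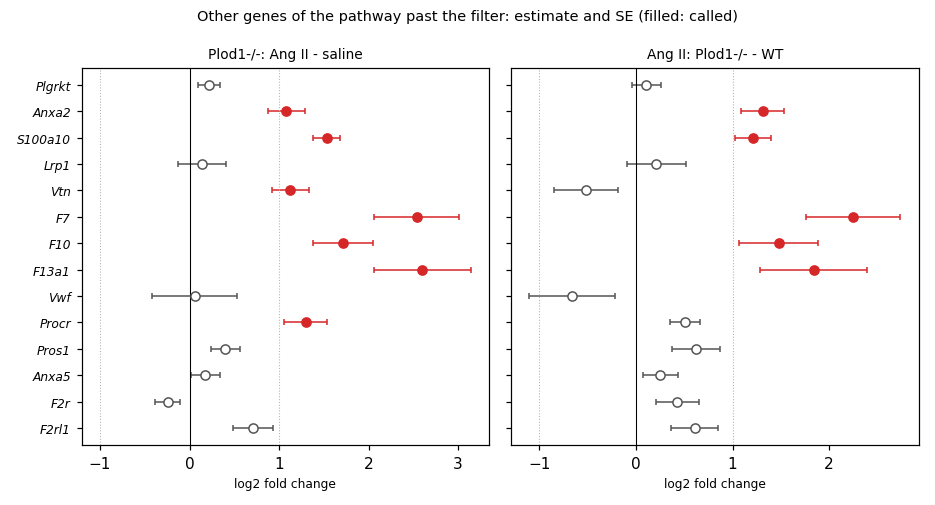
Log2 fold changes on the log2(FPKM + 1) scale with their SE for the 14 other genes of plasminogen, coagulation, anticoagulation and protease-activated receptors that passed the filter; filled red points were called and dotted lines mark a log2 fold change of 1 in size. *F7*, *F10*, *F13a1*, *Anxa2* and *S100a10* are filled in both panels, at 1.08 to 2.60.

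Markers of other cell types moved with these genes. The 9 macrophage markers were called higher, 9 of 9, in Ang II-treated *Plod1*-/- mice against saline and against Ang II-treated WT mice. Their median change against saline was 3.08 on the log2 scale. Their summed level was 108 to 494 FPKM in saline-treated and 1030 to 5536 FPKM in Ang II-treated *Plod1*-/- mice, and 234 to 413 and 354 to 2055 in the corresponding WT groups. The 2055 belonged to WT replicate 1, which also had the highest *Tfpi2*, *Plaur* and *Plat* of its group. Of 6 neutrophil markers 5 passed the filter and were called higher in both comparisons, from a summed level of 1.35 to 3.02 in saline-treated to 156 to 723 FPKM in Ang II-treated *Plod1*-/- mice. The exception was *Ly6g*, which was at 0 in some mice of the other 3 groups and at 0.143 to 0.280 FPKM in Ang II-treated *Plod1*-/- mice. Between the genotypes under saline 2 of the 6 passed the filter, and between the WT groups 2 did. Markers that passed only through the Ang II-treated *Plod1*-/- mice had to be higher there, so their calls are no separate support. Among 8 platelet and megakaryocyte markers, 5 of the 6 tested were higher against saline and 3 against Ang II-treated WT mice, and their sum went from 12.6 to 31.7 to 154 to 1000 FPKM in *Plod1*-/- mice. *Pf4*, which macrophages also express, made up most of that sum. Between the genotypes under saline 3 of the 8 platelet and megakaryocyte markers passed the filter, and between the WT groups 4 did. The limit given for the neutrophil calls thus holds for these calls too. The 5 red blood cell markers were higher in both comparisons. Their sum was 60.0 to 1523 FPKM in saline-treated and 763 to 9716 in Ang II-treated *Plod1*-/- mice, with overlap. In WT mice it was 151 to 1443 FPKM under saline, which also overlapped, and 185 to 666 under Ang II. Of the 8 fibroblast markers, 2 were called higher in both comparisons, the collagen genes *Col1a1* (3.27 and 3.41 on the log2 scale) and *Col1a2* (2.02 and 2.25), and 1 was lower against Ang II-treated WT mice. The list medians were 0.48 against saline and 0.18 against Ang II-treated WT mice, where those of all genes tested were 0.05 and 0.12. The sum of the 8 was 788 to 1205 FPKM in saline-treated WT and 611 to 943 in Ang II-treated WT mice. It was 514 to 839 in saline-treated and 963 to 5086 in Ang II-treated *Plod1*-/- mice. The last range overlapped that of saline-treated WT mice, but not those of the other groups. *Col1a1* alone went from a mean of 96.9 to 1217 FPKM in *Plod1*-/- mice. The difference between the responses was called higher for 3 of the 8. In this bulk tissue more cells of a type and more RNA per cell cannot be told apart, and the part of these cell types in the changes of *Plau*, *Plaur* and *Tfpi2* was not tested.

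Smooth muscle markers moved with *Serpine2*. Of 10 markers, 7 were called lower with Ang II in *Plod1*-/- mice and 4 in WT mice, and 2 were lower between the genotypes under Ang II. Their median log2 fold changes were -1.73, -0.92 and -0.74 in these comparisons. Their sum was 15328 to 21161 FPKM in saline-treated and 2403 to 17473 in Ang II-treated *Plod1*-/- mice, and 14521 to 20891 and 5646 to 17410 in the WT groups. The 2 highest Ang II-treated sums, those of WT replicate 4 and *Plod1*-/- replicate 1, came with *Serpine2* levels of 121 and 54.8 FPKM. Not every mouse followed this order, since the highest *Serpine2* of the Ang II-treated *Plod1*-/- group, 56.4 FPKM in replicate 3, came with a sum of 6336. The endothelial list, for *Thbd*, *Tfpi* and *Procr*, had 3 of 10 markers called higher with Ang II in *Plod1*-/- mice and 5 in WT mice, and summed levels that overlapped in the 4 groups. Brown adipocyte markers were higher with Ang II in WT mice, in 5 of 6, with a summed level of 605 to 4828 FPKM in that group, and 5 of 6 were lower in Ang II-treated *Plod1*-/- mice than in these WT mice (median log2 fold change -3.14). Adipocyte markers were higher with Ang II in WT mice in 5 of 5 tested (median 3.72), and so were skeletal muscle markers in 3 of 4, with sums of up to 288 FPKM. The part of these cell types in the differences of the 8 genes between the genotypes under Ang II was not tested.

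Immediate early genes, which encode Fos, Jun and other AP-1 and Egr proteins, differed between the groups in the same direction as *Plaur*. Of 15, 11 were called lower with Ang II in WT mice, 5 were higher with Ang II in *Plod1*-/- mice and 12 were higher in Ang II-treated *Plod1*-/- than in Ang II-treated WT mice. In the same order the list medians were -2.15, 0.99 and 1.73 on the log2 scale, where those of all genes tested were -0.14, 0.05 and 0.12. Their summed level was 682 to 3075 FPKM in WT mice under saline and 185 to 324 under Ang II, and 317 to 1586 and 808 to 1888 in the *Plod1*-/- groups. Their part in the changes of *Plaur* and *Tfpi2*, whose promoters hold the AP-1 letters shown above, was not tested.

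**Figure D5:**
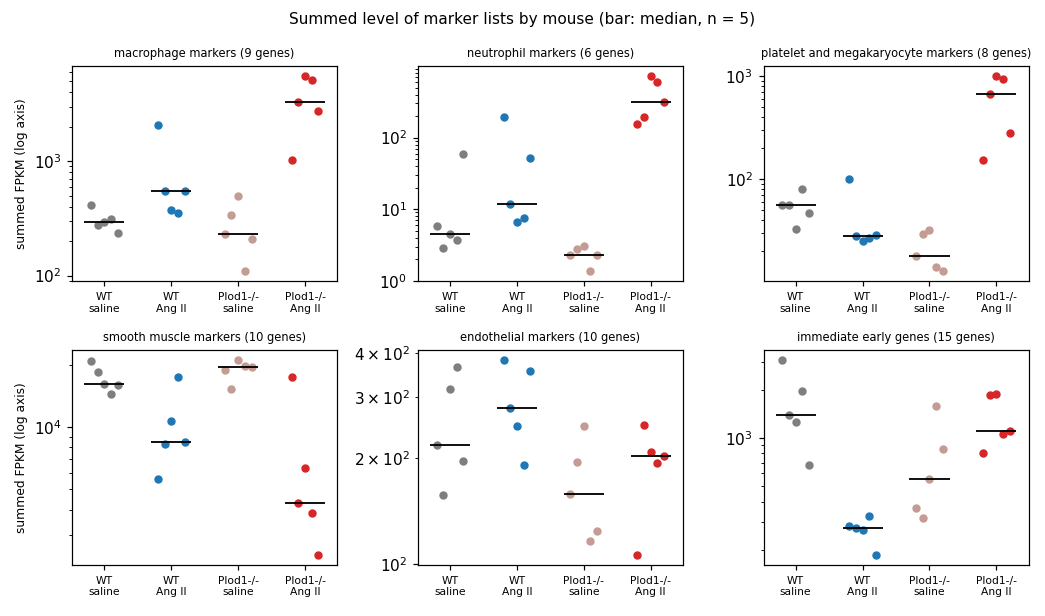
Summed FPKM of 6 gene lists in each mouse (log axis); points are mice and bars are medians (n = 5). The median macrophage, neutrophil and platelet sums are highest in Ang II-treated *Plod1*-/- mice, although WT replicate 1 overlaps them for macrophages and neutrophils, the median smooth muscle sum is lowest there with 1 mouse at 17473 FPKM, and immediate early genes are lowest in Ang II-treated WT mice (185 to 324 FPKM).

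Pearson's r of log2(FPKM + 1) across the 20 mice was 0.888 for *Plau* and *Tfpi2* and 0.855 for *Plau* and *Plaur*, and it was 0.904 for *Tfpi2* and *Tfpi*, which was not called. *Serpine2* had r of -0.80 with *Tfpi2* and -0.675 with *Plau*. *F3* and *Thbd* had r from -0.195 to 0.404 with the other members. These values are descriptions over 4 groups of mice, and a difference between groups enters each of them.

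Among 13263 genes, those with the pattern most like *Plaur* were *Tpm4* (r = 0.973), *Nans* (0.965) and *Surf4* (0.961), and those most like *Plau* were *Glipr2* (0.969), *Bin1* (0.935) and *Pafah1b3* (0.933). *Tfpi2* was most like *Arsi* (0.978), *Aurkb* (0.976) and *Tnfrsf23* (0.976). *Tfpi* was most like *Hs2st1* (0.950), *Slc10a7* (0.942) and *Rap2c* (0.935). *Serpine2* was most like *Tceal3* (0.975), *Htra1* (0.961) and *Jam3* (0.960). The nearest genes of the others were less like them, with *Pde1a* at 0.819 for *Plat*, *Pcnp* at 0.811 for *F3* and *Gm24095* at 0.781 for *Thbd*.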

How the data were processed

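Abdominal aortas of 20 mice were sequenced, 5 in each of 4 groups, with group and replicate number taken from the labels. The authors mapped reads with HISAT2, assembled transcripts with stringtie and computed FPKM with cuffquant and cuffnorm. The deposited FPKM values, 1 per Ensembl gene and mouse, carry the scaling of cuffnorm between libraries. The submitters' processing notes name HISAT2 2.1.0, Bowtie2 2.2.3, HTSeq 0.6.0 and the mm10 build. Counts were not used here, so depth is unknown and edgeR, which the authors name, was not run. FPKM depends on the other genes of a library, so a large class can lower the rest.

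Symbols came from the reference tables for 43226 of 43422 identifiers. Values were analysed as log2(FPKM + 1) with limma 3.58.1 (R 4.3.3, eBayes with a variance trend). Each comparison used its own 10 mice and kept genes that reached an FPKM of 1 in 5 or more of them, and the difference between the responses used 20 mice. Adjustment was over all genes tested. Fits were tested on simulated data. Python 3.11.15, scipy 1.17.1 and matplotlib 3.10.9 gave the exact two-sided tests and plots. Where nothing states separate litters or days, p-values measure the spread between these mice.

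The members and gene lists were chosen with earlier results of these data known. A gene of the plasminogen list is not reported here, and the counts of that list leave it out. All 8 members are named in each comparison, called genes of the pathway lists up to 6 per list, and the 3 genes most like each member. *Plod1*, *Xist* and single cell type markers are named as checks, and genes that were not called, such as *Plg*, *Vwf* and the liver factors, were chosen after their values were seen. Alternatives were a pseudocount of 0.1, no filter, replicate block, no trend, weights per mouse, quantile normalization, gene-wise variances, 1 fit of the 4 groups, the adjusted p alone, mitochondrial genes left out, libraries with *Xist* RNA left out and each mouse left out.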

Additional observations from a re-analysis of the deposited data

Results flagged for a closer look

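Of the 32 sets of 5 mice (8 genes in 4 groups), 4 held a mouse far from the other 4 on the log2(FPKM + 1) scale, where chance alone marks about 1 in 20 sets. *Serpine2* had 121 FPKM in Ang II-treated WT replicate 4, against 58.3 to 67.1 in the other 4 mice. *Plat* had 12.7 FPKM in saline-treated *Plod1*-/- replicate 5, against 17.0 to 18.1. *Thbd* had 48.9 FPKM in Ang II-treated *Plod1*-/- replicate 1, against 19.6 to 25.5. *Tfpi2* had 1.10 FPKM in Ang II-treated WT replicate 1, against 0.359 to 0.486. The *Plat* and *Thbd* libraries are the 2 with *Xist* RNA, and the *Tfpi2* library has the highest macrophage sum among WT mice.

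The Ang II response differed between the genotypes by the test of the difference itself for 3 genes. On the log2(FPKM + 1) scale, the response in *Plod1*-/- mice minus that in WT mice was 1.79 for *Plau*, 3.26 for *Plaur* and 2.17 for *Tfpi2* (limma adjusted p = 0.00177, 3.68e-05 and 6.30e-05). *Tfpi2* passed the filter on low values only through the Ang II-treated *Plod1*-/- group and so had to differ, and its p adds nothing to that. These differences were called in each of the 20 fits that left out 1 mouse.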

How the results depend on the processing

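The calls of *Plau*, *Plaur*, *Tfpi2* and *Serpine2* with Ang II in *Plod1*-/- mice, and those of *Plau*, *Plaur* and *Tfpi2* between the genotypes under Ang II and in the difference between the responses, were kept in every alternative tried and without each mouse in turn. In WT mice the number of genes called with Ang II was 0, but 1 with a pseudocount of 0.1, 2 with weights per mouse, 2 by the adjusted p alone and 0 to 2 without each mouse in turn. The difference between the responses was called for 3 genes, for 5 by the adjusted p alone and for 4 with a pseudocount of 0.1 (*Tfpi* added). Over all 13263 genes tested, these settings called 2129, 5017 and 2770. With *Serpine2* added, 4 were called with quantile normalization (2115 over all genes), with mitochondrial genes left out (2068 of 13249) and without the libraries with *Xist* RNA (2515 of 13602). Without each mouse in turn the difference was called for 3 to 4. The *Serpine2* call between the genotypes under Ang II was lost without a filter on low values (adjusted p = 0.0958), with gene-wise variances (adjusted p = 0.0716) and with weights per mouse, where the log2 fold change was -0.88. The same weights gave calls of *Serpine2* (-1.13) and *F3* (-1.01) with Ang II in WT mice. In the fits without 1 mouse, 3 to 4 genes were called between the genotypes under Ang II.

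The ratio tests kept their direction. Without the libraries with *Xist* RNA the *F3* to *Tfpi* change with Ang II in *Plod1*-/- mice (-1.19) and the *Plau* to *Plat* changes against saline (1.68) and against Ang II-treated WT mice (1.63) missed the threshold at an adjusted p of 0.0762, since fewer mice raise the smallest p that can be reached. Leaving out each mouse gave -1.18 to -0.99, 1.62 to 2.002 and 1.55 to 2.01, each with an adjusted p of 0.0423.

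Values near 0 that were not called changed sign. In WT mice the log2 fold change of *Tfpi* with Ang II was 0.0018 with quantile normalization and ran from -0.11 to 0.041 without each mouse in turn, and that of *Plat* from -0.34 to 0.044. Under saline, *Serpine2* was 0.00086 with quantile normalization and *Plat* -0.0016 with weights per mouse, and without each mouse in turn *Plat* ran from -0.047 to 0.11 and *Tfpi* from -0.093 to 0.033. *Thbd* between the genotypes under Ang II ran from -0.066 to 0.33 without each mouse in turn, and was -0.066 without both libraries with *Xist* RNA. The cause was not tested.

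Replicate numbers do not pair the mice: in each pair of groups, 1 or 2 of 5 same-numbered mice had deviations that correlated above 0.1, and no pair of groups had each mouse correlate best with its own number. With replicate number as a block, no call of the 8 genes changed, and the change of *Serpine2* between the genotypes under Ang II had an adjusted p of 0.0408 in limma, at a log2 fold change of -1.04. Depth is unknown, so the precision of the low *Tfpi2* values rests on the spread between 5 mice alone.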
